A study of Mus musculus with 2 samples.

Results

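The genes described here are 9 components of mouse inflammasomes and of pyroptosis, the lytic death that inflammasomes set off: Nlrp3, Nlrc4, Naip2, Naip5, Nek7, Pycard, Casp1, Casp4 and Gsdmd. They were chosen by name, not by any measured value, and all 9 were found among the 55536 annotated genes of the deposited gene tables, each under 1 identifier. Total RNA depleted of ribosomal RNA came from nuclei of mouse bone marrow-derived macrophages, phagocytes grown from marrow, of strain C57BL/6J. All samples formed 1 group with 2 libraries, replicates 1 and 2. The cells were exposed to 100 ng/ml Lipid A, the TLR4-activating part of lipopolysaccharide, for 12 hours, kept without it after washing for 12 hours, and stimulated again with 100 ng/ml for 20 minutes. No genotype other than the strain was recorded, and the sex and age of the mice were not collected. Both libraries carry the same donor label, so it is not known if they stand for separate animals, and the spread between them may be technical. Replicate 1 started from 1 µg of RNA and replicate 2 from 500 ng, so input and replicate cannot be told apart. No untreated or singly treated library was in the group, so no response to Lipid A and no test of a condition is given here. Every comparison is a description of levels within these libraries or of the difference between them.

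An inflammasome is a cytosolic complex in which a sensor protein recruits, often through the adaptor ASC, the protease caspase-1. NLRP3 responds to ion efflux and membrane damage and needs the kinase NEK7, whereas NLRC4 is engaged by NAIP proteins that have bound bacterial flagellin or secretion system proteins. Caspase-1, and in the noncanonical pathway the lipopolysaccharide-binding caspase encoded by Casp4, cut gasdermin D, whose freed part forms pores in the plasma membrane. In macrophages Nlrp3 and Casp4 are known as genes induced through TLR4 and interferon, a background fact that these libraries cannot test.

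The libraries held 21954179 and 17739520 expected counts in genes, where an expected count is an estimated number of reads that need not be whole. TPM, the deposited length-scaled level, divides such counts by effective length and scales each library to the same sum, so levels of different genes can be set side by side. The small nuclear RNA gene Rn7sk alone took 26.9% of the TPM in each library, and mitochondrial genes took 3.52% and 6.37% of the counts, so a TPM here is a share of a total on which short noncoding RNA weighs heavily. Markers of the labelled cell type were present: all 8 macrophage markers reached 1 TPM, with a median of 124 TPM. Of markers of other cells, 1 of 10 for neutrophils and their precursors, 0 of 6 for dendritic cells, 0 of 6 for lymphoid cells, 0 of 6 for mast cells, basophils and erythroid cells and 1 of 6 for stromal cells reached it by the mean of the libraries, with no mean above 1.55 TPM. Their summed levels were between 0.06 and 2.34 TPM per list in replicate 1 and between 0.42 and 4.03 TPM in replicate 2. In bulk RNA, fewer cells with a transcript and less of it per cell cannot be told apart.

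All 9 genes were present in the nuclear RNA of both libraries. Each had a mean of 1 TPM or more, which 23.3% of all annotated genes had, and 7 had 10 TPM or more. Among the 12952 genes at 1 TPM or more, the median was 6.94 TPM and the upper quartile 17.2 TPM. Of the 9 genes, 8 lay above that median, where 50.0% of the genes lie by construction, and 6 above the upper quartile. The median of the 9 genes was 24.2 TPM, and the highest was 27.4-fold above the lowest.

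**Figure D1:**
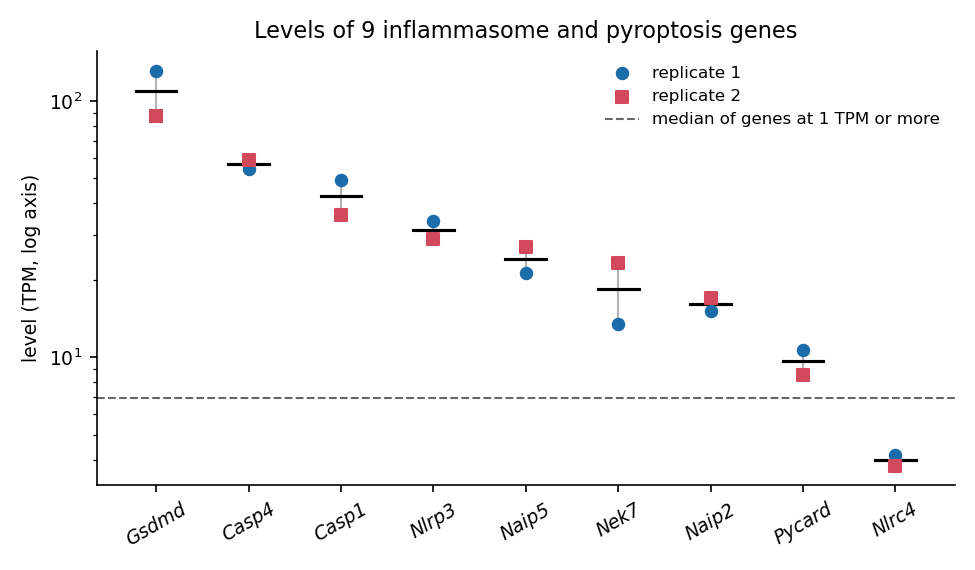
Level of each gene in TPM (log axis) in replicate 1 (circles) and replicate 2 (squares), in order of the mean (black bars), with the median of the 12952 genes at 1 TPM or more as a dashed line. Gsdmd stands highest, at 131 and 87.1 TPM, and Nlrc4 is the one gene under the dashed line, at 4.18 and 3.79 TPM.

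Among the sensors, Nlrp3 (ENSMUSG00000032691.14, on the plus strand of mm10 at chr11:59541568-59566956) had 34.0 TPM in replicate 1 and, in replicate 2, 29.0 TPM, or 31.5 ± 3.56 TPM (SD, n = 2), on 3828 and 1978 expected counts. Nlrc4 (ENSMUSG00000039193.9, minus strand, chr17:74425438-74459142) encodes the platform that assembles with NAIP proteins. It had 4.18 and 3.79 TPM, or 3.99 ± 0.276 TPM (SD, n = 2), on 479 and 301 expected counts. Both genes had the lower TPM in replicate 2, and in each library Nlrp3 lay well above Nlrc4. Nlrc4 was the lowest of the 9 genes in both libraries.

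The NAIP genes, whose products bind bacterial ligands for NLRC4, stood above their partner. Naip5, which encodes a receptor for flagellin, had 21.4 TPM in replicate 1 and, in replicate 2, 26.9 TPM, or 24.2 ± 3.89 TPM (SD, n = 2). Naip2, which encodes a receptor for the inner rod protein of type III secretion systems, had 15.2 and 17.0 TPM, or 16.1 ± 1.29 TPM (SD, n = 2). Both NAIP genes had the higher TPM in replicate 2, though by counts scaled to the library total (CPM) Naip2 had 93.2 and 87.8. Naip5 was above Naip2 in each library on both scales. Both lie on the minus strand of chromosome 13 of mm10, Naip2 (ENSMUSG00000078945.10) at chr13:100144063-100202092 and Naip5 (ENSMUSG00000071203.6) at chr13:100211739-100246323, with 9646 bases between them.

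Nek7 (ENSMUSG00000026393.10, minus strand, chr1:138482875-138620141), the gene of the kinase that NLRP3 needs for activation, had 13.5 TPM in replicate 1 and, in replicate 2, 23.4 TPM, or 18.5 ± 7.0 TPM (SD, n = 2). Its values spanned those of Naip2. Pycard (ENSMUSG00000030793.4, minus strand, chr7:127989708-127993867), which encodes the adaptor ASC, had 10.7 and 8.56 TPM, or 9.65 ± 1.53 TPM (SD, n = 2), and was second lowest in both libraries. The adaptor transcript was therefore below those of the sensor Nlrp3 and of both caspases in each library.

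The caspases stood near the top. Casp1, which encodes the protease that matures interleukin-1β and interleukin-18, had 49.4 TPM in replicate 1 and, in replicate 2, 35.8 TPM, or 42.6 ± 9.62 TPM (SD, n = 2). Casp4, which encodes the mouse protease of the noncanonical pathway, had 54.5 and 59.0 TPM, or 56.7 ± 3.19 TPM (SD, n = 2). Casp4 was above Casp1 in both libraries. In replicate 1 it had fewer expected counts (1471, against 1898 for Casp1), but its weighted transcript length there was 1114 bases against 1497. This order held only for the sum over all annotated transcripts of Casp4, noncoding ones included. The coding Casp4-201 alone had 22.6 and 18.1 TPM, below Casp1 in both libraries. Both genes lie on the plus strand of chromosome 9, Casp1 (ENSMUSG00000025888.5) at chr9:5298517-5307265 and Casp4 (ENSMUSG00000033538.13) at chr9:5308828-5336783, only 1562 bases apart. Over 1085 aligned positions the coding sequences of Casp1-201 and Casp4-201 were 65.4% identical.

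Gsdmd, which encodes the pore-forming protein that both caspases cut, was the highest of the 9 genes in each library. It had 131 TPM in replicate 1 and, in replicate 2, 87.1 TPM, or 109 ± 31.3 TPM (SD, n = 2), on 3694 and 1464 expected counts. Its mean was higher than that of 97.0% of the genes at 1 TPM or more and 1.92-fold that of Casp4, the next gene down. Gsdmd (ENSMUSG00000022575.5) lies on the plus strand of chromosome 15 at chr15:75862327-75867408. These levels sum all its annotated transcripts. The coding Gsdmd-201 alone had 59.9 and 29.9 TPM, in replicate 2 below the 35.8 TPM of Casp1.

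In the deposited gene tables, the order Gsdmd, Casp4, Casp1, Nlrp3, Naip5, Nek7, Naip2, Pycard, Nlrc4 by mean TPM held at most steps beyond the range of the libraries. Of the 8 neighbouring pairs in it, 6 had ranges that did not overlap. The ranges of Naip5 and Nek7 overlapped, as did those of Nek7 and Naip2. The order of Nek7 and Naip2 also turned between the libraries. In a further deposited table, of transcripts summed to genes, the order by mean was the same. There, however, the ranges of all 8 neighbouring pairs overlapped. Every gene of the group had the higher TPM in replicate 2 in that table, where the median gene also shifted, by a log2 of 1.28. The overlaps there thus do not by themselves show an unsure order. Gsdmd had 40.4 and 65.2 TPM in it and Casp4 had 22.8 and 56.4 TPM. The order of Casp1 and Nlrp3 turned between the libraries in that table, as did that of Nek7 and Naip2. The other neighbouring pairs kept their order in each library.

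The codons on which the protease step turns are shown for both caspases and their substrate, since these stretches carry the chemistry that links the highest genes of the group. The capitals mark the codon of the active-site cysteine in Casp1 (residue 284) and in Casp4 (residue 254), and in Gsdmd the codon of the aspartate after which caspases cut (residue 276). Each is 45 coding bases of the first annotated transcript, on the plus strand of mm10 and each spanning an exon junction: chr9:5303744-5304200 for Casp1, chr9:5324928-5327189 for Casp4 and chr15:75866155-75866318 for Gsdmd.
Casp1: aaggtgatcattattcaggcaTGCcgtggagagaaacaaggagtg
Casp4: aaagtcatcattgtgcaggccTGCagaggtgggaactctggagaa
Gsdmd: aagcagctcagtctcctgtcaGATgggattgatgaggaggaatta

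Between the libraries, a difference here is the log2 ratio of TPM + 1 in replicate 2 to TPM + 1 in replicate 1, less the median of that ratio over the 12952 genes, which was 0.29. Of the 9 genes, 0 differed over 2-fold, where 7.29% of the 12952 genes did, 4.51% lower and 2.78% higher in replicate 2. Among the genes lower in replicate 2, Gsdmd had the largest difference, -0.88, followed by Casp1 at -0.74, Pycard at -0.58, Nlrp3 at -0.51 and Nlrc4 at -0.40. Casp4 at -0.18, Naip2 at -0.14 and Naip5 at 0.03 lay within the quartiles of all genes, which were -0.33 and 0.32. Nek7, at 0.46, was the one gene above the upper quartile. In all, 7 of 9 were below 0, where 50.0% of genes are by construction. The count rested on the centring: before it, 5 of 9 were below 0, against 27.8% of genes. The median of the 9 genes was -0.40, and -0.11 before centring. With 1 library on each side these values have no test.

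Counts gave another view of the same difference, with an interval for counting error only. In CPM Gsdmd had 168 in replicate 1 and 82.5 in replicate 2, a log2 ratio of -1.03 (95% exact binomial interval -1.12 to -0.94). Nlrp3 had 174 and 112 CPM, a log2 ratio of -0.65 (-0.72 to -0.57), and Casp1 had 86.5 and 52.8 CPM, a log2 ratio of -0.71 (-0.83 to -0.60). Nlrc4 had 21.8 and 17.0 CPM, a log2 ratio of -0.36 (-0.58 to -0.15). These 4 genes were thus lower in replicate 2 on both scales of the main table. In the second transcript table that the authors deposited, the centred difference of Nlrp3 was -0.03, while that of Casp1 was -0.49 and that of Gsdmd -0.60. Nek7 had 71.1 and 99.9 CPM, a log2 ratio of 0.49 (0.39 to 0.59), and was higher in replicate 2 on both. Pycard was not: its 34.4 and 35.4 CPM gave a log2 ratio of 0.04 (-0.11 to 0.20), while its TPM was lower in replicate 2. Its weighted transcript length was 2564 bases in replicate 1 and 3800 in replicate 2, because the short Pycard-202 had 33.7 expected counts in replicate 1 and 0 in replicate 2. The intervals of Casp4 and Naip2 held 0 as well.

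**Figure D2:**
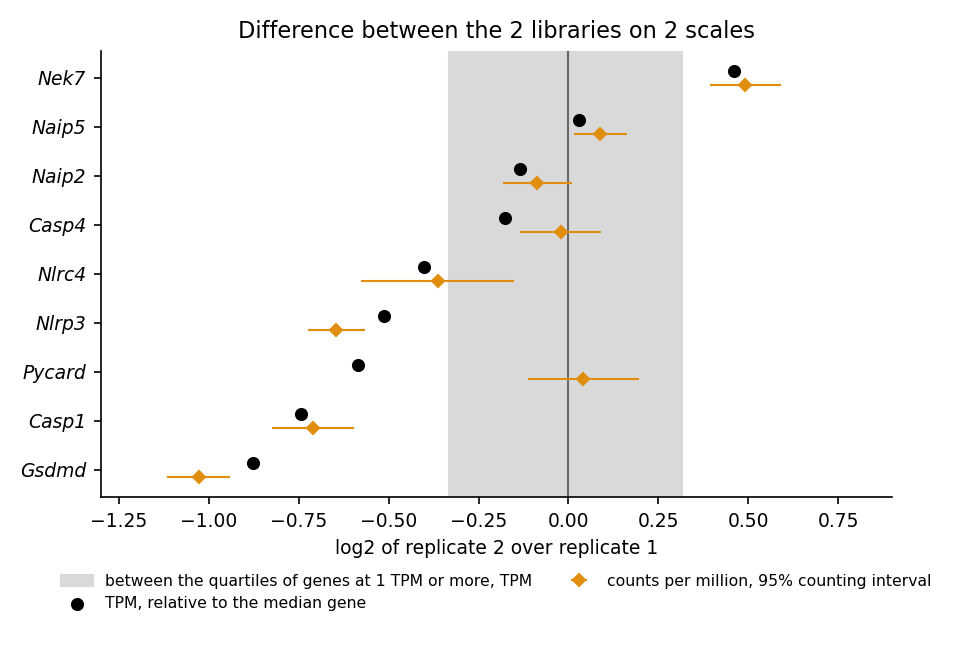
Log2 of replicate 2 over replicate 1 for each gene, from TPM relative to the median gene (black circles) and from CPM with 95% counting intervals (orange diamonds). The grey band lies between the quartiles of the 12952 genes by TPM. The points of Gsdmd, Casp1, Nlrp3 and Nlrc4 lie left of the band on both scales, and those of Nek7 lie right of it. The counting interval of Nlrc4 reaches into the band, which is not drawn for CPM. Pycard is left of the band by TPM but near 0 by counts.

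Most of the interferon-inducible genes outside the 9 that are given here were lower in replicate 2 after centring. The same centred difference was -1.93 for Isg15, a ubiquitin-like modifier, -1.66 for the chemokine gene Cxcl10, -1.20 for Mx1, -1.17 for Rsad2 and -0.34 for Ifit2, the last 3 of which encode antiviral effectors. These 5 genes were picked after their values were seen. Others were taken from the pathway lists, also with their values known. The difference was -1.11 for Gbp2, -0.95 for Gbp3, -0.91 for Gbp5, -0.55 for Irgm2 and -0.36 for Gbp7. It was -0.19 for Irgm1, -0.02 for Il18bp and -0.01 for Aim2. Trim30a, at 0.31, was the only one of those given that was higher in replicate 2 after centring. Before centring, Aim2 (0.28), Il18bp (0.26) and Irgm1 (0.10) were above 0 as well. The part of such genes in the differences of the 9 was not tested.

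Reads were divided among 30 annotated transcripts of the 9 genes, of which 20 are protein coding, 7 carry the label retained intron and 3 the label nonsense-mediated decay. Isoform share here is the percent of a gene's TPM that 1 of its transcripts holds. Casp1 and Naip5 have 1 transcript each. In all 7 genes with more, the highest transcript by mean share was protein coding, as in 84.5% of the 9280 protein-coding genes at 1 TPM or more with at least 2 transcripts. The highest transcript was the same in both libraries in 6 of the 7, and in 75.0% of such genes. The exception was Nlrp3, where Nlrp3-201 had 53.7% and 37.8% and Nlrp3-202 had 46.4% and 49.2% in replicates 1 and 2. The authors' deposited posterior SD for these transcripts was 181 and 203 reads for Nlrp3-201 on 2032 and 832 expected counts, so the split is known less well than the sum, for which it was 0. The split also differed in the second table, where Nlrp3-202 was the highest in both libraries with 58.6% and 51.9%, Nlrp3-201 had 16.1% and 3.23%, and Nlrp3-203 had 25.3% and 44.8%.

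**Figure D3:**
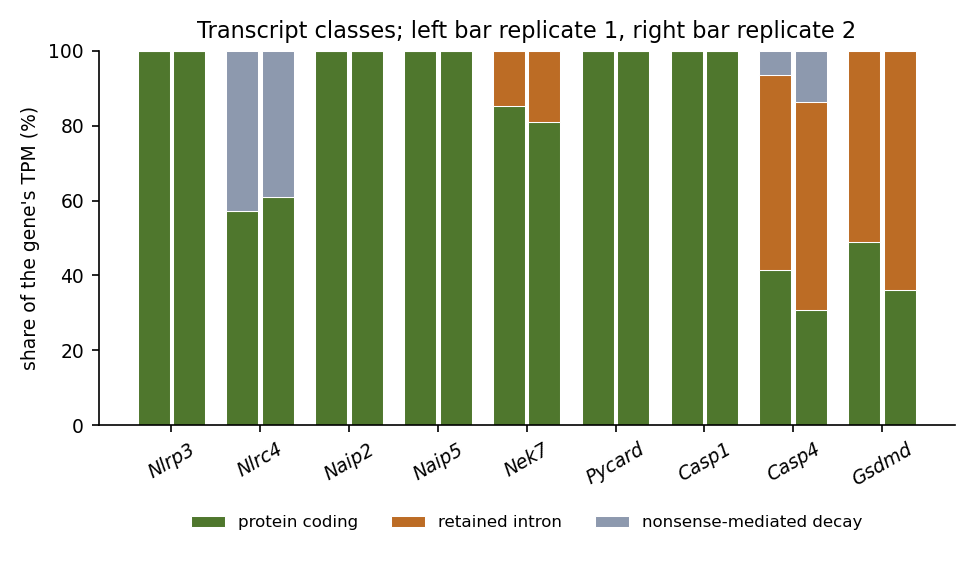
Share of each gene's TPM, in percent, held by transcripts annotated as protein coding (green), retained intron (brown) and nonsense-mediated decay (grey), with replicate 1 as the left and replicate 2 as the right bar of each pair. Gsdmd and Casp4 have most of their TPM in retained-intron transcripts in both libraries, and Nlrc4 has 42.7% and 39.0% in a nonsense-mediated decay transcript.

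Gsdmd and Casp4, the highest genes of the group, were also those with the largest share of TPM in transcripts annotated as retained intron. The label does not mean a whole intron: of these transcripts of Gsdmd and Casp4, only Gsdmd-206 keeps an intron of the gene's first annotated transcript from end to end. In Gsdmd these held 51.0% in replicate 1 and 63.9% in replicate 2, or 57.5% ± 9.07 (SD, n = 2). In Casp4 they held 52.1% and 55.5%, or 53.8% ± 2.43 (SD, n = 2). Nek7, the only other one of the 9 with such a transcript, had 14.8% and 19.0% in Nek7-204. Over the 6243 genes at 1 TPM or more with at least 1 retained-intron transcript, the median share was 26.2% and the upper quartile 41.8%, so Gsdmd and Casp4 lay above the upper quartile and Nek7 below the median. The size of the share depends on length. Counted in reads instead of TPM, retained-intron transcripts held 22.5% and 33.8% of Gsdmd and 31.8% and 37.6% of Casp4, against a median of 15.4% and an upper quartile of 34.0%. By reads Gsdmd, with a mean of 28.1%, was below that upper quartile and Casp4, with 34.7%, just past it.

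The retained-intron transcripts of Gsdmd are short and lie at different places of the gene. Gsdmd-205, of 406 bases at the 5′ end, had 26.1% in replicate 1 and 17.2% in replicate 2, and Gsdmd-204, of 915 bases in the middle, had 18.7% and 13.0%. Gsdmd-206, of 677 bases at the 3′ end, had 6.18% and 33.6%. Gsdmd-206 was thus the one that was higher in replicate 2, with 113 and 275 expected counts and a deposited posterior SD of 20.5 reads in each library, although Gsdmd as a whole was lower there. The full-length Gsdmd-201, of 1792 bases, had 45.6% and 34.3%, on 2831 and 963 expected counts.

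Gsdmd-206 keeps whole an intron of Gsdmd-201 that lies between coding exons. Of the 677 bases of Gsdmd-206, 578 lie in exons of Gsdmd-201, so a read from it need not hold any base of the intron. The intron is 99 bases long, at chr15:75866691-75866789 on the plus strand of mm10. It is printed with 10 bases of exon on either side, and the capitals mark its first and last 2 bases, GT and AG, the usual ends of an intron.
Gsdmd-206: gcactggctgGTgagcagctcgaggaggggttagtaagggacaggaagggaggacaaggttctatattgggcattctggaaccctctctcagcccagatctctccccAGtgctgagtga
Reads from precursor RNA with this intron still in place would be assigned to the same transcript, and the tables do not separate them.

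**Figure D4:**
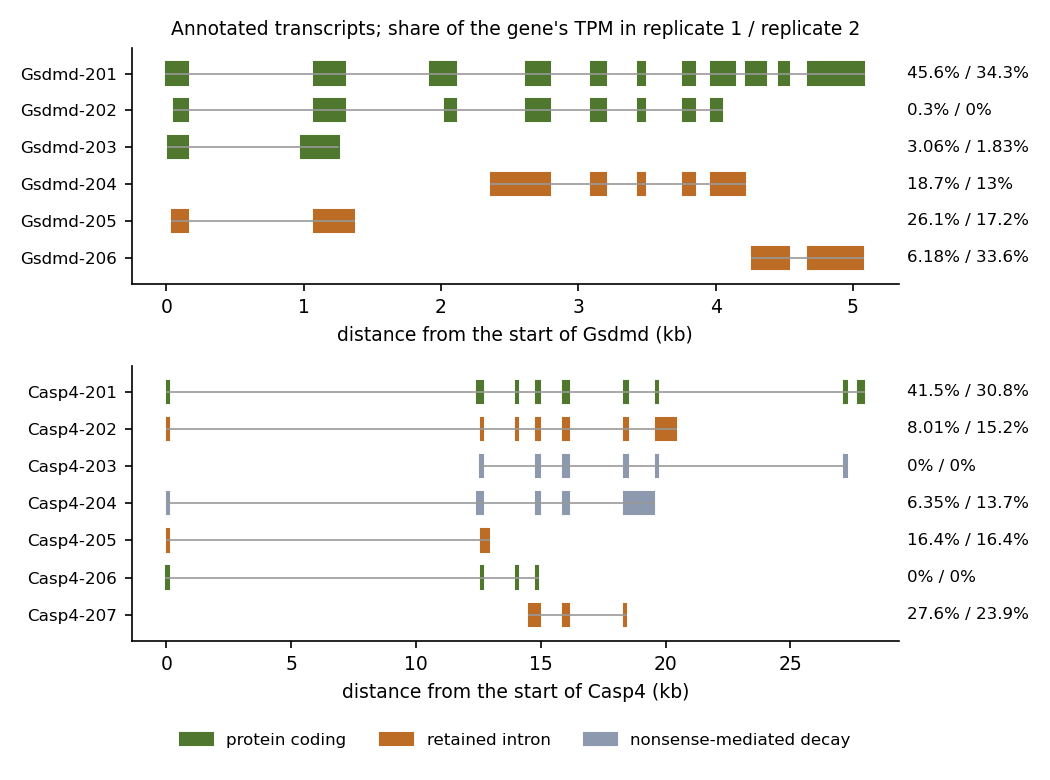
Annotated exons (boxes) of the transcripts of Gsdmd and Casp4 by distance from the start of the gene in kb, coloured by class, with the share of the gene's TPM in replicate 1 and replicate 2 at the right. Gsdmd-206, at the 3′ end, has 6.18% and 33.6%, and the shares of Casp4 are spread over 5 transcripts above 0.

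In Casp4, the protein-coding Casp4-201 had 41.5% in replicate 1 and 30.8% in replicate 2. The retained-intron transcript Casp4-207 had 27.6% and 23.9%, Casp4-205 had 16.4% in both, and Casp4-202 had 8.01% and 15.2%. Casp4-204, annotated for nonsense-mediated decay, had 6.35% and 13.7%. The coding transcript had the smaller share in replicate 2 while the gene's TPM was close in the libraries. In these transcripts, between 228 bases (Casp4-205) and 1038 bases (Casp4-204) lie outside the exons of Casp4-201, and none of them keeps an intron of it whole. In Nek7, the coding Nek7-201 had 51.4% and 52.4%, and the coding Nek7-202 had 31.3% and 22.9%.

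For Nlrc4, a transcript annotated for nonsense-mediated decay, a pathway that degrades mRNA with an early stop codon, had a large share. Nlrc4-202 had 42.7% in replicate 1 and 39.0% in replicate 2, or 40.8% ± 2.61 (SD, n = 2), on 155 and 87.5 expected counts. The coding Nlrc4-201 had 57.3% and 61.0%. Over the 3107 genes with such a transcript the median share was 4.46% and the upper quartile 14.7%. The call rested on the table used: in the second transcript table, Nlrc4-202 had 4.68% and 7.32% of the gene's TPM, below the median of 8.21% that such transcripts had there. Nlrc4-202 has 3110 bases in 8 exons and Nlrc4-201 has 4729 bases in 9 exons. Among other differences, Nlrc4-202 lacks the first 14 bases of an exon of Nlrc4-201, a number that is not a multiple of 3, on the minus strand at chr17:74447091-74447977. Both joins are printed with 20 bases on either side, the bases left out in capitals.
Nlrc4-201: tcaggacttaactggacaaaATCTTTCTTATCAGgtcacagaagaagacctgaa
Nlrc4-202: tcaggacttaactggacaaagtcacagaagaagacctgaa
At this place only reads that touch the join or the 14 bases tell the transcripts apart.

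The transcripts of Naip2 also divided differently in the tables. In the main table the coding Naip2-201 had 90.5% in replicate 1 and 66.7% in replicate 2, Naip2-202 had 8.32% and 20.7%, and Naip2-203 had 1.16% and 12.7%. In the second table Naip2-201 had 19.6% and 23.0%, and Naip2-202 had 78.4% and 71.9%. All 3 are protein coding. The short coding transcripts Pycard-202 and Nlrp3-203 were seen in 1 library only in the main table: Pycard-202 had 37.4% in replicate 1 and 0% in replicate 2, and Nlrp3-203 had 0% and 13.0%.

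Some reads of the 9 genes could belong to other genes. Of the distinct 31-base words in the annotated transcripts of Naip5, 53.1% also occurred in transcripts of other genes, mainly Naip6, and of those of Naip2 32.8%, mainly Naip1. For Pycard the share was 12.7%, mainly with Gm45205, which overlaps it on the other strand and reaches into its exons. It was 3.35% for Nlrc4, 2.41% for Nek7, 1.98% for Casp4 and 0 for Nlrp3, Casp1 and Gsdmd. Gm45205 had 15.2 and 16.3 expected counts, against 755 and 628 for Pycard, and no source used here gives the strand setting of the counting. Gm28501, opposite Nek7, was listed at 0. Gm37080 and Gm37101, on the same strand as Nek7 and within its introns, had 78 and 174 expected counts in replicate 1 and 110 and 274 in replicate 2. The deposited posterior SD of the gene counts was 0 in both libraries for 6 of the 9 genes, and at most 3.27 reads, for Naip5. It covers the division of reads among annotated genes and no other error. For Naip5 it was 3.27 and 2.94 reads on 3197 and 2746 expected counts, and for Naip2 it was 0.31 and 0. Any other error in the Naip values, whose transcripts share many words with other genes, was not measured.

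The likeness of the Naip genes is shown by 60 coding bases taken where the identity of Naip2 to Naip5 is near that of the whole coding sequence. Coding sequences of Naip2-201 and Naip5-201 were 90.0% identical over 4205 aligned positions, and those of Naip5-201 and Naip6-202 97.0% over 4209. The stretches are at chr13:100246035-100246094, chr13:100189234-100189293 and chr13:100316387-100316446, all on the minus strand, and capitals mark bases that differ from Naip5.
Naip5: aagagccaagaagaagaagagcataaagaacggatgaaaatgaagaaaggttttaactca
Naip2: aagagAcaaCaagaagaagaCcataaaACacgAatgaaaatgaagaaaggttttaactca
Naip6: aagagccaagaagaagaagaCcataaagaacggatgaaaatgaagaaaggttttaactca
In this window Naip2 differed from Naip5 at 6 bases and Naip6 at 1.

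Other genes of the pathway were taken from 8 lists of 71 symbols, the 9 genes included. Of the 58 other genes that were matched, 41 reached 1 TPM. Beside Nlrp3 and Nlrc4, 4 of 7 other canonical sensors did. The DNA sensor gene Aim2 had 78.9 TPM in replicate 1 and, in replicate 2, 95.7 TPM, above Nlrp3 in both. Nlrp1b, whose product is activated by protease cleavage, had 18.2 and 40.3 TPM, and Mefv, which encodes pyrin, had 15.0 and 9.60 TPM. Nlrp1a had 1.20 and 1.02 TPM. Nlrp10 had 0.23 and 0.31 TPM, Nlrp6 had 1 and 0 expected counts, and Nlrp12 had 0 in both libraries, where 0 counts allow up to 0.137 and 0.169 CPM. The range of Nlrp1b held both values of Nlrp3.

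In the Naip family, Naip6 had 20.5 TPM in replicate 1 and, in replicate 2, 29.8 TPM, so its range held that of Naip5. Naip1, which encodes the receptor for the secretion system needle, had 0.22 and 0.18 TPM, and Naip3 had 0.13 TPM in both. Naip2, Naip5 and Naip6 were thus the members of the family above 1 TPM.

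Of the other caspases on the list, 5 of 6 reached 1 TPM. Casp8, the initiator caspase of death receptors, had 30.1 and 51.9 TPM, a range that held both values of Casp1. Casp9 had 9.52 and 8.28 TPM, Casp6 had 1.72 and 2.57 TPM, and Casp12, whose product is linked to stress of the endoplasmic reticulum, had 0.72 and 0.33 TPM.

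**Figure D5:**
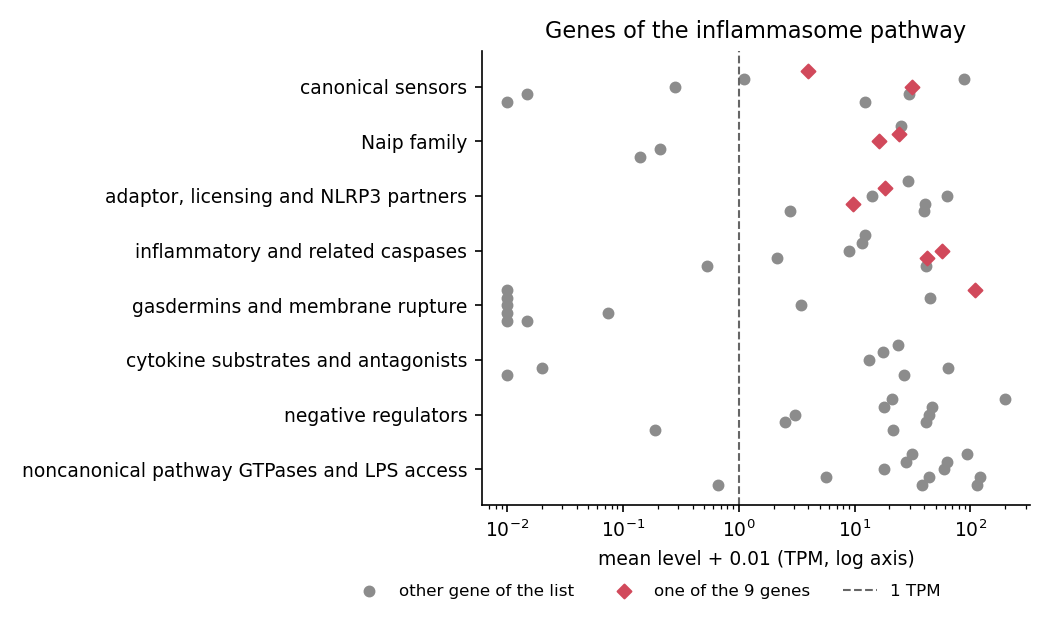
Mean TPM of the genes of each pathway list on a log axis (0.01 added so that genes at 0 can be drawn), with the 9 genes as red diamonds and the others as grey circles. The dashed line marks 1 TPM. Gsdmd, at 109 TPM, is the highest of the gasdermin list, in which 5 genes are at 0 in both libraries.

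Among the gasdermins, Gsdmd stood alone at a high level. Gsdme, which encodes another pore-forming protein, had 2.69 TPM in replicate 1 and, in replicate 2, 4.14 TPM. The other 7 gasdermin genes were under 1 TPM and 5 of them had 0 counts in both libraries. Ninj1, whose product ruptures the membrane of dying cells, had 48.7 and 41.5 TPM.

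The genes of the cytokines that caspase-1 matures lay below Casp1 in each library. Il1b had 25.8 and 27.6 TPM and Il18 had 27.1 and 19.9 TPM. Il18bp, which encodes the antagonist that binds interleukin-18, had 57.9 and 69.7 TPM and was above Il18 in both libraries. Il33 had 0 counts in both.

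The remaining lists held partners, inhibitors and the genes of lipopolysaccharide access. Gbp5, a GTPase gene linked to NLRP3 assembly, had 75.9 and 48.9 TPM, Ddx3x had 28.7 and 51.9 TPM and Txnip had 27.6 and 51.6 TPM. Among negative regulators, 9 of 10 reached 1 TPM, led by Trim30a with 157 and 239 TPM, Chmp4b with 50.9 and 43.0 TPM and Serpinb6a with 35.6 and 51.9 TPM. Of the genes of the noncanonical pathway and lipopolysaccharide access 11 of 12 did, led by Irgm1 with 117 and 125 TPM, Gbp2 with 146 and 82.6 TPM and Cd14 with 73.2 and 112 TPM. Of the genes of the 8 lists at 1 TPM or more, only Gbp2 and Hmgb1 were over 2-fold apart between the libraries by the centred difference. Over all 12952 genes at 1 TPM or more, 7.29% were. Gbp2 encodes a GTPase that coats bacteria, and Hmgb1 a chromatin protein released by dying cells. Gbp2 was lower in replicate 2, with a centred difference of -1.11, and Hmgb1, with 16.5 and 46.5 TPM, was higher, with 1.15. The pick rested on the centring: before it, Gbp2 was at -0.82, within 2-fold. Hmgb1 (1.44), Nlrp1b (1.11) and Ly96 (1.16), a gene of lipopolysaccharide access, were then over 2-fold higher in replicate 2.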

How the data were processed

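Per library, the deposited files are gene and transcript tables with expected counts (estimated reads), TPM, the isoform percent (a transcript's percent of its gene's TPM) and a posterior SD of the count, treated here as a score, per the file headers. Another deposited table, of transcripts only, gives estimated counts with their own TPM, per the file headers. The assembly mm10 and annotation GENCODE M21 are named in the text files deposited with the samples. Aligner, quantifiers, versions and strandedness: not given in the sources used here.

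All 9 genes were picked by name and no measured value set the choice, though earlier results of these data were known. Such results were also known when the pathway lists were chosen. Of the 71 list symbols, 4 (Naip7, Pydc3, Pydc4 and Irgb10) matched no gene name. Named were the 9 genes, all of the sensor, Naip and caspase lists, the 3 highest of each other list, genes over 2-fold apart after centring, and transcripts with a share of 10% or more in either library. Some genes of the caspase list are not reported here. Some others (Il33, Isg15, Cxcl10, Mx1, Rsad2, Ifit2, Gbp3, Gbp7, Irgm2 and Ly96, and overlapping genes) were added after their values were seen. The 26248 entries with numeric identifiers stayed out of totals. Means and SDs are over 2 libraries. Differences added 1 to TPM, over genes with a mean of 1 TPM or more. The limit for a count of 0 was 3 counts. Intervals and limits cover counting error only. A chi-square over 14347 genes was 91.3 per degree of freedom, so the libraries were not 1 library deposited again. Only the difference between libraries and the counting interval were tested on simulated counts, which held counting error alone and used a smaller pseudocount. Alternatives used edgeR 4.0.16 (TMM) in R 4.3.3, and other steps Python 3.11.15. Transcript sequences, positions and types came from GENCODE M21. Protein sequences were not used here.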

Additional observations from a re-analysis of the deposited data

How the results depend on the processing

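All 9 genes kept a level of 1 TPM (or 1 CPM) or more under the 5 alternatives tried, and between 7 and 9 lay above the median gene under the 8 tried for that count (8 when either replicate was left out). The count over 2-fold between the libraries was 0 in every alternative but counts not divided by length, where it was 1 (Gsdmd, at -1.11). The median difference of the 9 genes, -0.40, stayed below 0 but moved to -0.24 with a pseudocount of 5, -0.23 with no filter, -0.15 in the second transcript table, -0.17 in counts not divided by length and -0.11 with no centring. The last follows from leaving out the shift of 0.29, and the other causes were not tested. The median gene itself shifted by 1.28 between the libraries in the second transcript table, where 3 small RNA genes (Gm23935, Gm24270 and Gm24245) held 58.1% of TPM in replicate 1 and 19.7% in replicate 2. Mean levels of all 9 genes were lower in that table, 52.8 TPM for Gsdmd and 20.3 TPM for Nlrp3. This did not hold in each library: in replicate 2 Nlrc4 had 4.08 TPM there against 3.79 in the main table. Nlrp3 was close in replicate 2, at 28.9 against 29.0 TPM. The highest transcript was protein coding in 9 genes, and in 8 in the second table, and it was the same in the tables for 7 of 9, Casp4 and Naip2 being the others. No paired analysis was possible because there was 1 group. Depth limits the minor transcripts, several of which had under 100 expected counts. With 2 libraries, no spread within a condition can be separated from input.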
